A study of Mus musculus with 8 samples.

Results

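The 9 genes described here are globins and 2 further genes of fetal red cells: the adult-type alpha globins Hba-a1 and Hba-a2, the adult-type beta globins Hbb-bs and Hbb-bt, the embryonic globins Hba-x, Hbb-y and Hbb-bh1, and Alas2 and Slc4a1. They were taken by symbol from the 46517 genes of a count table. They had been selected on their counts in these same 8 libraries, so their levels, ratios and differences between groups are given as descriptions. Where the text counts how many of them passed a call in a fit over all genes, the count stands beside the share of all genes and supports nothing. All 9 were found in the table, and 6 of them passed the filter on low counts that precedes the fit. The filter left out the 3 embryonic globins.

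RNA sequencing of total RNA was done on epididymal ducts, the coiled part of the male tract that forms from the Wolffian duct, dissected from mouse embryos at E18.5. The 4 PTK7KO libraries (numbered 1, 2, 4 and 5) came from embryos with the disrupted Ptk7 allele Xst87 over a floxed Ptk7 allele. The 4 control libraries (numbered 1, 3, 4 and 6) came from embryos with a wild-type over a floxed Ptk7 allele. Both genotypes carried T-Cre, a Cre recombinase under the promoter of the mesoderm gene T, and the mT/mG reporter, so controls were exposed to Cre as well. The protein Ptk7 spans the cell membrane, lacks kinase activity and is known for its role in planar cell polarity. The labels do not say whether the libraries of a group came from separate embryos or litters, so a p-value measures the spread between these libraries, which may be technical. They do not give the strain background either, and the counts were made on the globin copies of the reference genome.

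Each haemoglobin molecule of a red cell joins alpha-like and beta-like globin chains around heme. The first, yolk sac derived red cells of the mouse make the embryonic chains, and red cells from the fetal liver make the adult-type chains. Alas2 is the first enzyme of heme synthesis in the red cell lineage, and Slc4a1 (band 3) is the anion exchanger and main integral protein of the red cell membrane. In a tissue that does not form red cells, such transcripts are commonly read as a measure of its blood content. In bulk RNA, fewer red cells and less RNA per red cell cannot be told apart.

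The adult alpha globins are near-identical copies on the plus strand of chromosome 11, Hba-a1 (ENSMUSG00000069919, GRCm38 chr11:32283511-32284465) and Hba-a2 (ENSMUSG00000069917, chr11:32296489-32297298). Their coding sequences of 429 bases differ at 1 base, C381T, counted from the A of the start codon and written from Hba-a1 to Hba-a2. The change is synonymous, so both copies encode the same protein. The bases around it are shown because they are the coding stretch on which the copies can be told apart, with the differing base in capitals.
Hba-a1 (chr11:32284313-32284373, plus strand): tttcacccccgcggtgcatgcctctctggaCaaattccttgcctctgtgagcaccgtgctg
Hba-a2 (chr11:32297130-32297190, plus strand): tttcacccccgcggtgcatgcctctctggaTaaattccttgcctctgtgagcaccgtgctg

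The adult beta globins are a like pair on the minus strand of chromosome 7, Hbb-bs (ENSMUSG00000052305, chr7:103826534-103828096) and Hbb-bt (ENSMUSG00000073940, chr7:103812524-103813996). Their coding sequences of 444 bases also differ at 1 base, the synonymous C417T, written from Hbb-bs to Hbb-bt. The end of the coding sequence is shown for both, with the differing base in capitals.
Hbb-bs (chr7:103826665-103826722, minus strand): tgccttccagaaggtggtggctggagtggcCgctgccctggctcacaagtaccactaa
Hbb-bt (chr7:103812656-103812713, minus strand): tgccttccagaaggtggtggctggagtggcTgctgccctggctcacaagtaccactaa

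These 4 sequences are from GENCODE M21 transcripts on GRCm38. Over the whole GENCODE transcript, 13.1% of the 50-base windows of Hba-a2 and 32.5% of those of Hba-a1 are absent from the other copy's transcript. For the beta pair the shares are 34.2% of the windows of Hbb-bs and 41.7% of those of Hbb-bt. The deposited gene models differ in length, with a first exon of 291 bases in Hba-a1 and of 130 bases in Hba-a2. The extra bases of Hba-a1 lie in the start region that both genes share (next paragraph). Windows within them are absent from the Hba-a2 transcript but occur just before it in the genome. The 32.5% thus overstates how far reads of Hba-a1 can be told apart on the genome. The sources used here do not give the read length or how reads that match both copies were assigned. The split of counts within each pair is therefore uncertain. If such reads were left out, the summed counts of a pair are affected as well. The embryonic chains are far less alike: the coding sequences of Hba-a1 and Hba-x are 62.0% identical, and those of Hbb-bs and Hbb-y 74.3%.

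The start regions of the alpha copies are alike as well. The 250 bases before the RefSeq start of Hba-a1 and of Hba-a2 hold 247 bases in common at an offset of 3, and none of these differ. The sequence is shown for Hba-a2, which differed most between the groups among the genes described here that passed the filter. In capitals are 4 kinds of short motif, each searched on both strands. They are GATAA, a form of the site known for GATA factors, and CACCC, the core known for KLF factors. The others are CCAAT, the core of the CCAAT box, and TATAA, the core of the TATA box.
Hba-a2 (RefSeq, GRCm38.p6, chr11:32296242-32296491, plus strand): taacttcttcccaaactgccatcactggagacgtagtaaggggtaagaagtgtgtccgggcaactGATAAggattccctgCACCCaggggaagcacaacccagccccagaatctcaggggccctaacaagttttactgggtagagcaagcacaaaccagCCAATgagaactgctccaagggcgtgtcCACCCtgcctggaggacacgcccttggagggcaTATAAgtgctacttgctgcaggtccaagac

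In this window GATAA lies 185 bases before the start and CACCC lies 170 and 63 bases before it. The CCAAT box lies 91 bases and the TATA box 30 bases before it. RefSeq promoter entries were matched for 7 of the 9 genes. GATAA and CACCC, on either strand, occurred in all 7 windows (Hba-a1, Hba-a2, Hba-x, Hbb-bs, Hbb-bt, Hbb-y and Alas2). CCAAT was absent from the windows of Hba-x and Alas2, and TATAA from that of Hbb-y. The windows of Hba-a1 and Hba-a2 are nearly the same sequence, so they are not separate cases. Among 32851 promoter windows of the same length, 22.6% hold GATAA and 52.0% hold CACCC, while 33.8% hold CCAAT and 22.8% hold TATAA. These are matches of letters and do not show binding.

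Total counts ran from 24807970 to 29590547 per library. Levels are given as CPM, in which each library's counts are scaled to the same total and corrected by TMM factors for differences in composition. Ptk7 (chr17:46564451-46629504, minus strand), the targeted gene, had 7.32, 7.59, 12.5 and 194.2 CPM in PTK7KO libraries 1, 2, 4 and 5, against 189.2, 112.4, 313.0 and 168.4 CPM in control libraries 1, 3, 4 and 6. The library labelled PTK7KO 5 thus went against its label for Ptk7, within the control range, and the results on the 9 genes and the gene lists that rest on it are given with and without it. The tissue label was checked on 12 markers of duct epithelium, all of which passed the filter, with a summed level of 828.8 to 1170.3 CPM in PTK7KO libraries and 981.6 to 1160.3 CPM in control libraries. These markers differed between the groups gene by gene: 11 of 12 had a log2 fold change below 0, with a median of -0.42 (-0.44 without library 5), and 8 of 12 were lower at an unadjusted p under 0.05 in edgeR, against 4.87% of all genes. None was called after adjustment, and 3 of 12 had groups that did not overlap, with PTK7KO lower, against 3.11% of all genes. Their part in the globin levels was not tested.

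The adult globins made up a small share of each library, and most of it came from Hbb-bs and Hba-a1. Together the 4 adult globins had 1510.0, 1348.7, 1339.5 and 3894.4 CPM in PTK7KO libraries 1, 2, 4 and 5, against 995.5, 1141.6, 776.3 and 2236.4 CPM in control libraries 1, 3, 4 and 6. The groups overlapped, and in each group 1 library stood far above the rest, PTK7KO 5 and control 6. All globins together took 0.134% to 0.384% of the counts in PTK7KO libraries and 0.0782% to 0.224% in control libraries. The summed level averaged 2023.2 ± 1250.0 CPM in PTK7KO libraries and 1287.4 ± 650.2 CPM in control libraries (SD, n = 4 each), and 1399.4 ± 95.9 CPM in PTK7KO libraries without library 5 (n = 3).

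**Figure D1:**
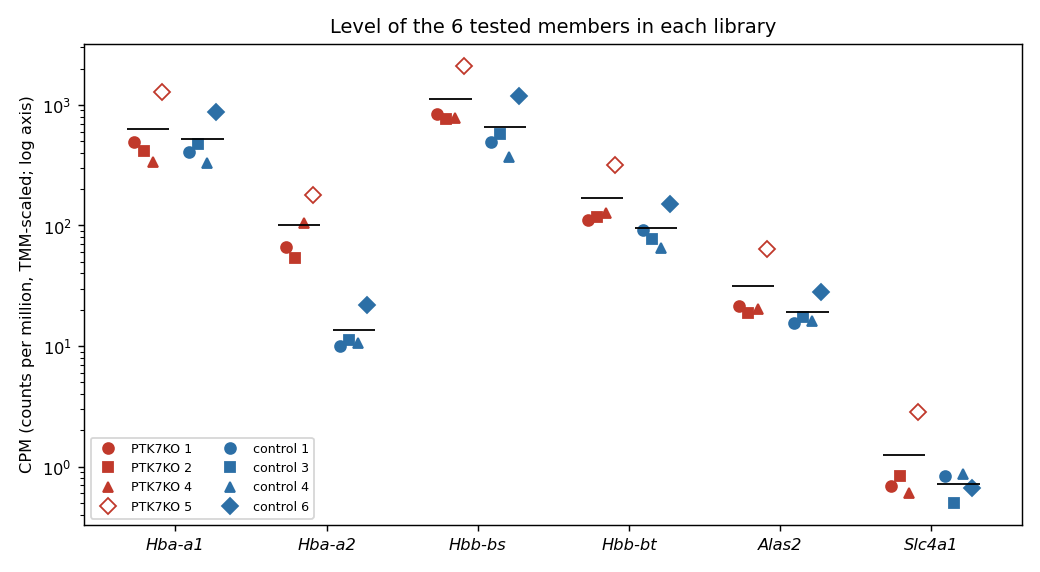
Level of the 6 genes that passed the filter in each library, in CPM on a log axis, with PTK7KO libraries in red left of control libraries in blue and the group mean as a line. PTK7KO 5, the open diamond, is the highest library for each gene, and Hba-a2 is the gene whose groups do not overlap.

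Per kilobase of exon (RPKM, CPM divided by exon length in kilobases), Hbb-bs was highest with a mean level of 1029.0 ± 639.4 RPKM over all 8 libraries (SD). Hba-a1 followed with 711.4 ± 413.9, then Hbb-bt with 188.1 ± 113.8, Hba-a2 with 85.9 ± 89.4, Alas2 with 10.5 ± 6.75 and Slc4a1 with 0.201 ± 0.157 RPKM. Down to Alas2 each gene was above the next in 8 of 8 libraries, and Alas2 was above Slc4a1 in 8 of 8. Slc4a1 was above Hbb-bh1 in 7 of 8 libraries. The order among Hbb-bh1, Hba-x and Hbb-y changed between libraries, and their counts do not separate them.

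Hba-a1, the major adult alpha copy, had 492.1, 418.3, 333.8 and 1289.2 CPM in PTK7KO libraries 1, 2, 4 and 5, against 404.6, 476.3, 328.9 and 878.0 CPM in control libraries 1, 3, 4 and 6. The groups overlapped over most of their range, with the 2 libraries of high globin on top. The mean was 633.4 ± 442.0 CPM in PTK7KO libraries and 522.0 ± 244.9 CPM in control libraries (SD, n = 4 each), and the log2 fold change of PTK7KO over control was 0.28 with a standard error (SE) of 0.42. Without library 5 its sign turned, at a log2 fold change of -0.33 (SE 0.30) and a PTK7KO mean of 414.7 ± 79.2 CPM.

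Hba-a2, the minor alpha copy, was the gene among the 6 that passed the filter whose groups did not overlap. It had 66.7, 54.0, 104.9 and 178.8 CPM in PTK7KO libraries 1, 2, 4 and 5, against 10.1, 11.2, 10.7 and 22.0 CPM in control libraries 1, 3, 4 and 6. Every PTK7KO library was above every control library, and the nearest pair was 54.0 CPM in PTK7KO 2 and 22.0 CPM in control 6. The counts behind these levels were 1417 to 4375 in PTK7KO libraries and 256 to 600 in control libraries. The mean was 101.1 ± 56.1 CPM in PTK7KO libraries and 13.5 ± 5.71 CPM in control libraries (SD, n = 4 each), a log2 fold change of 2.90 (SE 0.39), or 7.49-fold. Without library 5 the PTK7KO mean was 75.2 ± 26.5 CPM and the log2 fold change 2.48 (SE 0.30).

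Among the 6 genes that passed the filter, Hba-a2 was the 1 gene whose groups did not overlap, with PTK7KO higher. Over all 16469 tested genes 5.76% did not overlap, and 2.65% did not overlap with PTK7KO higher. All 6 had a log2 fold change above 0 (5 of 6 without library 5), as had 51.4% of all tested genes. In edgeR's quasi-likelihood fit over those genes, 0 of the 6 passed a Benjamini-Hochberg adjusted p of 0.05, and 0 of all 16469 genes did (0%). At an unadjusted p under 0.05 there were 2 of the 6 higher and 0 lower, against 3.5% and 4.87% of all genes (8.37% in either direction). DESeq2 called 184 of 16170 genes at an adjusted p under 0.05 (1.14%), and 0.353% as higher, with Hba-a2 among these. Since the genes were selected on these libraries, nothing is read from these counts.

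Hbb-bs, the major adult beta globin, had 840.4, 757.8, 774.0 and 2108.7 CPM in PTK7KO libraries 1, 2, 4 and 5, against 489.5, 577.4, 372.2 and 1184.5 CPM in control libraries 1, 3, 4 and 6. All PTK7KO libraries were above 3 of the control libraries, and control 6 was above 3 of the PTK7KO libraries. The mean was 1120.2 ± 659.9 CPM in PTK7KO libraries and 655.9 ± 362.3 CPM in control libraries, with a log2 fold change of 0.77 (SE 0.41). Without library 5 it was 0.27 (SE 0.33), and without control 6, the control library with most globin, 1.22 (SE 0.36).

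Hbb-bt, the minor beta copy, had 110.8, 118.5, 126.7 and 317.6 CPM in PTK7KO libraries 1, 2, 4 and 5, against 91.2, 76.7, 64.6 and 151.9 CPM in control libraries 1, 3, 4 and 6. It ran in the same pattern as Hbb-bs, with control 6 as the only control library inside the PTK7KO range. The log2 fold change was 0.81 (SE 0.36), 0.31 (SE 0.24) without library 5 and 1.12 (SE 0.35) without control 6.

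Alas2 (ENSMUSG00000025270, chrX:150547375-150570638, plus strand) had 21.5, 18.8, 20.4 and 64.1 CPM in PTK7KO libraries 1, 2, 4 and 5, against 15.4, 17.4, 16.1 and 28.1 CPM in control libraries 1, 3, 4 and 6. Apart from PTK7KO 5 and control 6, the libraries lay between 15.4 and 21.5 CPM, with each PTK7KO library above each control library. The log2 fold change was 0.69 (SE 0.38), 0.07 (SE 0.20) without library 5 and 0.93 (SE 0.40) without control 6. Its exons share 372 of 2403 bases with Apex2 and Mir3620 on the other strand, and the strand setting of the counting is not given.

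Slc4a1 (ENSMUSG00000006574, chr11:102348824-102366203, minus strand) was near the limit of what these libraries count. It had 18, 22, 16 and 70 counts in PTK7KO libraries 1, 2, 4 and 5, against 21, 15, 25 and 18 counts in control libraries 1, 3, 4 and 6. Here PTK7KO 5 alone stood out, and control 6 did not. The mean was 1.25 ± 1.08 CPM in PTK7KO libraries and 0.715 ± 0.17 CPM in control libraries, with a log2 fold change of 0.80 (SE 0.49), and 0.00184 (SE 0.30) without library 5.

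**Figure D2:**
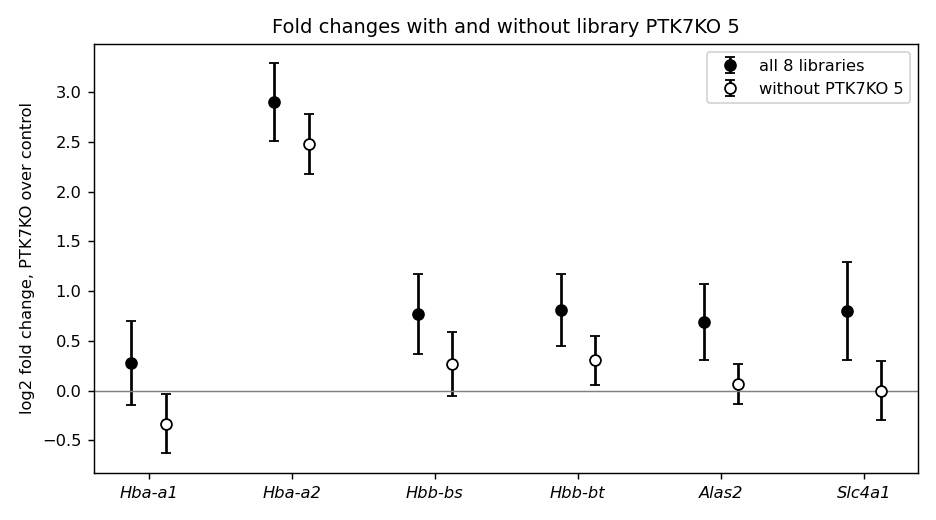
Log2 fold change of PTK7KO over control for the 6 genes, with bars of 1 SE, for all 8 libraries (filled) and without PTK7KO 5 (open). Hba-a2 stays at 2.48 without that library, while the other 5 genes lie between -0.33 and 0.31. The fit without control 6 is not drawn. It gave 0.65 for Hba-a1, 3.24 for Hba-a2 and 1.22 for Hbb-bs. For Hbb-bt it gave 1.12, for Alas2 0.93 and for Slc4a1 0.76.

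The embryonic chains were at the edge of detection. Hba-x (ENSMUSG00000055609, chr11:32276400-32278116, plus strand), the embryonic alpha-like chain, had 1, 0, 0 and 3 counts in PTK7KO libraries 1, 2, 4 and 5, against 1, 1, 0 and 1 counts in control libraries 1, 3, 4 and 6. Hbb-bh1 (ENSMUSG00000052217, chr7:103841636-103843164, minus strand), an embryonic beta-like chain, had 3, 0, 1 and 1 counts in PTK7KO libraries and 0 in every control library. Hbb-y (ENSMUSG00000052187, chr7:103851745-103853240, minus strand), the other embryonic beta-like chain, had 1 count in all, in PTK7KO 2. Counts this low do not separate the groups.

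As shares of all beta-like globin counts, Hbb-y and Hbb-bh1 together made up 0.0121%, 0.00435%, 0.00423% and 0.00168% in PTK7KO libraries 1, 2, 4 and 5. In the control libraries they were 0 of 14707, 19661, 12559 and 36370 counts in libraries 1, 3, 4 and 6, which allows shares of up to 0.0204%, 0.0153%, 0.0239% and 0.00825% from counting error alone (3 counts of the total). A difference was not detectable at this depth. Nearly all globin counts in both groups came from the adult chains.

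The share of Hba-a2 among alpha globin counts is a ratio taken within each library. Hba-a2 took 11.9% (95% Clopper-Pearson interval 11.4% to 12.5%), 11.4% (10.9% to 12%), 23.9% (23.1% to 24.7%) and 12.2% (11.8% to 12.5%) in PTK7KO libraries 1, 2, 4 and 5. In control libraries 1, 3, 4 and 6 it took 2.44% (2.15% to 2.75%), 2.29% (2.06% to 2.55%), 3.14% (2.81% to 3.51%) and 2.45% (2.26% to 2.65%). The groups were far apart on this scale, and PTK7KO 5, which had the Ptk7 level of a control, had an Hba-a2 share like those of PTK7KO 1 and 2.

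The mean share of Hba-a2 was 14.9% ± 6.04 in PTK7KO libraries and 2.58% ± 0.382 in control libraries (SD, n = 4 each), a difference of 12.3 percentage points, and 15.8% ± 7.06 in PTK7KO libraries without library 5. Per kilobase of exon the mean share was 17.5% ± 6.82 in PTK7KO libraries and 3.12% ± 0.46 in control libraries. Intervals cover counting error only. As a ratio, there were 7.37, 7.74, 3.18 and 7.21 Hba-a1 counts per Hba-a2 count in PTK7KO libraries 1, 2, 4 and 5, against 40.0, 42.6, 30.8 and 39.8 in control libraries 1, 3, 4 and 6. PTK7KO 4 and, less so, control 4 had the lowest ratio of their group.

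The beta copies did not split in this way. Hbb-bt took 11.6% (11.3% to 12.1%), 13.5% (13.1% to 14%), 14.1% (13.6% to 14.5%) and 13.1% (12.8% to 13.4%) of the Hbb-bs and Hbb-bt counts in PTK7KO libraries 1, 2, 4 and 5. In control libraries 1, 3, 4 and 6 it took 15.7% (15.1% to 16.3%), 11.7% (11.3% to 12.2%), 14.8% (14.2% to 15.4%) and 11.4% (11.0% to 11.7%). The groups overlapped fully, with means of 13.1% ± 1.04 in PTK7KO libraries and 13.4% ± 2.17 in control libraries (13.1% ± 1.27 in PTK7KO libraries without library 5), and single libraries differed by more than their counting intervals.

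**Figure D3:**
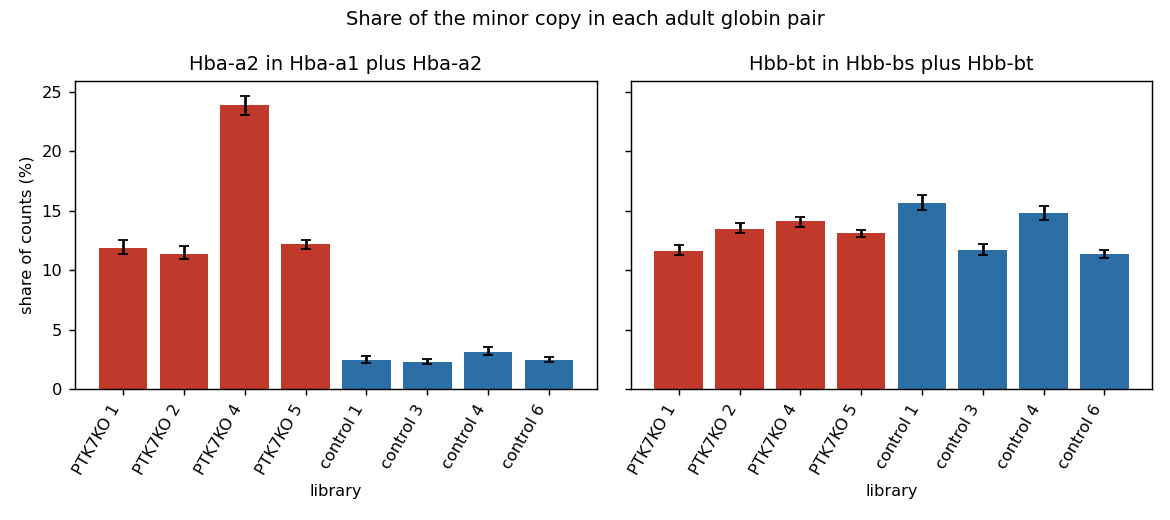
Share of the minor copy in the adult alpha pair (left) and the adult beta pair (right) in each library, in percent of the pair's counts, with 95% Clopper-Pearson intervals. The PTK7KO bars for Hba-a2 run from 11.4% to 23.9% and the control bars from 2.29% to 3.14%, while the Hbb-bt bars of the groups overlap.

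Alpha globin counts were also lower against beta globin counts in PTK7KO libraries. This ratio too depends on whether reads that match both copies of a pair were counted, which is not known. Hba-a1 plus Hba-a2 had 0.587, 0.539, 0.487 and 0.605 counts per count of Hbb-bs plus Hbb-bt in PTK7KO libraries 1, 2, 4 and 5, against 0.714, 0.745, 0.778 and 0.674 in control libraries 1, 3, 4 and 6. The groups did not overlap, with means of 0.554 ± 0.0529 in PTK7KO libraries and 0.728 ± 0.0443 in control libraries (SD, n = 4 each), and 0.538 ± 0.05 in PTK7KO libraries without library 5.

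The copies went in opposite directions on this ratio. Hba-a1 alone had 0.517, 0.477, 0.371 and 0.531 counts per beta globin count in PTK7KO libraries 1, 2, 4 and 5, against 0.697, 0.728, 0.753 and 0.657 in control libraries 1, 3, 4 and 6. Hba-a2 alone had 0.0702, 0.0616, 0.116 and 0.0737 in PTK7KO libraries, against 0.0174, 0.0171, 0.0244 and 0.0165 in control libraries, in the same order of libraries. The mean of Hba-a1 was lower by more than the mean of Hba-a2 was higher (0.474 ± 0.0724 in PTK7KO and 0.709 ± 0.0414 in control libraries for Hba-a1, 0.0804 ± 0.0243 in PTK7KO and 0.0189 ± 0.00372 in control libraries for Hba-a2). Without library 5 the PTK7KO means were 0.455 ± 0.0754 for Hba-a1 and 0.0826 ± 0.0292 for Hba-a2. When the counts of each pair were added up and fitted as 1 gene, the log2 fold change was 0.46 (SE 0.41) for the alpha pair and 0.78 (SE 0.40) for the beta pair, and -0.13 (SE 0.29) and 0.27 (SE 0.31) without library 5.

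**Figure D4:**
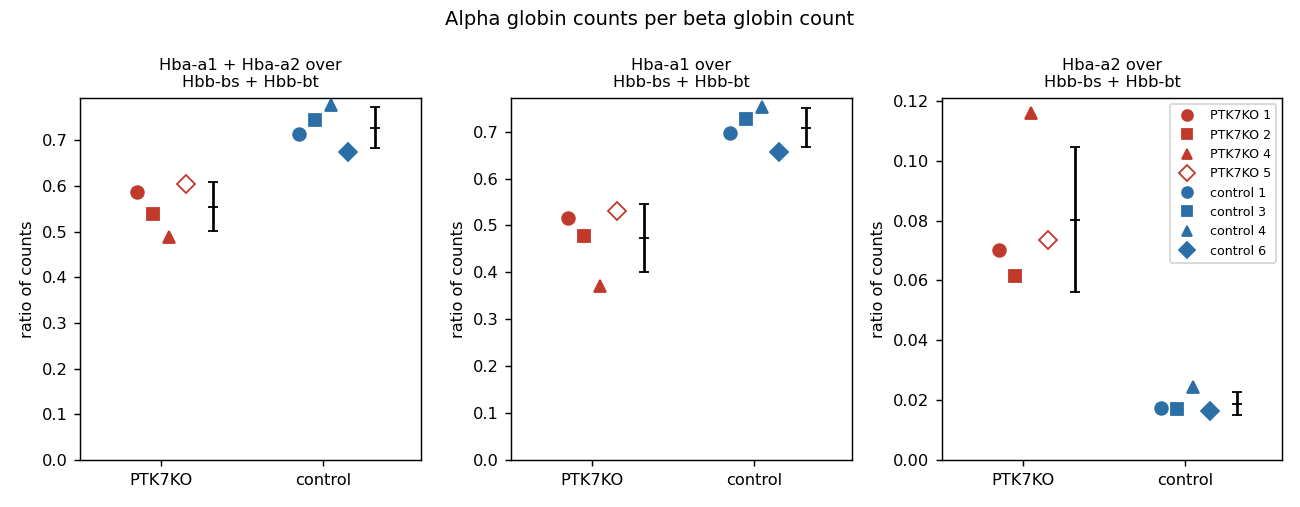
Counts of both adult alpha globins, of Hba-a1 alone and of Hba-a2 alone per count of the adult beta globins in each library, with group mean and SD as black bars. PTK7KO libraries lie lower for the sum (0.487 to 0.605, against 0.674 to 0.778 in control libraries) and for Hba-a1, and higher for Hba-a2.

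Ratios between the other red cell genes overlapped between the groups. There were 70.2, 71.9, 65.8 and 60.7 adult globin counts per Alas2 count in PTK7KO libraries 1, 2, 4 and 5, against 64.5, 65.5, 48.1 and 79.5 in control libraries 1, 3, 4 and 6. There were 31.2, 22.4, 33.4 and 22.4 Alas2 counts per Slc4a1 count in PTK7KO libraries, against 18.6, 34.9, 18.6 and 42.6 in control libraries. Over the 8 libraries, Pearson's r of log2 CPM was 0.97 between Hbb-bs and Hbb-bt and 0.94 between Hbb-bs and Alas2, and 0.41 between Hba-a1 and Hba-a2. These correlations are descriptions over libraries whose blood content was not measured apart from these genes, with PTK7KO 5 and control 6 high in most genes.

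Genes near the globin clusters were set beside them. Within 200 kb of the alpha cluster 7 of 11 other genes were tested, and their log2 fold changes ran from -0.13 (Nprl3, a gene next to the cluster) to 0.58 (Gm12108), with groups that overlapped for each of the 7. Without library 5 they ran from -0.19 (Mpg) to 0.60 (Gm12108). Within 200 kb of the beta cluster 1 of 36 other genes was tested, Dnajc19-ps, with a log2 fold change of -0.13.

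The rest of the red cell programme was read from 6 lists of 76 genes, of which 74 were found and 57 tested. In edgeR 0 of the 57 were called in either direction (0% of all genes tested). At an unadjusted p under 0.05 there were 0 higher and 5 lower, against 3.5% and 4.87% of all genes. In either direction these were 8.77% of the 57, against 8.37% of all genes. Their median log2 fold change was -0.00288, with 27 of 57 above 0, and that of all genes tested was 0.00551. Without library 5 the median of the 57 was -0.0062. DESeq2 called 2 of them, Slc11a2 and Car2, both lower, against 1.14% of all genes called in either direction. Groups did not overlap for 3 of the 57 with PTK7KO lower and 0 with PTK7KO higher, against 3.11% and 2.65% of all genes.

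Slc11a2, an iron transporter of endosomes and gut, averaged 28.0 ± 1.25 CPM in PTK7KO libraries and 35.1 ± 2.35 CPM in control libraries (SD, n = 4 each), a log2 fold change of -0.33 (SE 0.08, DESeq2 adjusted p = 0.0386). Car2, a carbonic anhydrase of red cells that epithelia also express, averaged 5.34 ± 1.98 CPM in PTK7KO libraries and 10.1 ± 3.11 CPM in control libraries, a log2 fold change of -0.92 (SE 0.27, DESeq2 adjusted p = 0.0462). Without library 5 the log2 fold changes were as large, -0.35 (SE 0.09) for Slc11a2 and -0.93 (SE 0.32) for Car2, and the DESeq2 adjusted p were 0.0625 and 0.102, so neither was called. The other 3 genes at an unadjusted p under 0.05 were Steap3, a ferric reductase (log2 fold change -0.26), Xpo7, a nuclear exporter of maturing red cells (-0.16), and Mb, myoglobin (-0.91).

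Among the erythroid transcription factors 9 of 12 genes were tested, 7 had a log2 fold change above 0 and the median was 0.17 (7 and 0.13 without library 5). Ldb1, an adaptor of GATA complexes, had 152.0 ± 4.8 CPM in PTK7KO libraries and 129.1 ± 32.6 CPM in control libraries. Gata1 and Klf1, the main regulators of globin genes, were below the filter with 21 and 60 counts over all 8 libraries.

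Of the 12 heme synthesis genes, all tested, 4 were above 0 with a median of -0.01 (6 and 0.0021 without library 5). Alad, the second enzyme of the pathway, had 67.0, 106.9, 83.3 and 174.6 CPM in PTK7KO libraries 1, 2, 4 and 5, against 100.2, 74.5, 68.4 and 65.3 CPM in control libraries 1, 3, 4 and 6. PTK7KO 5 was highest here as well, and control 6 was lowest. Of the 8 iron uptake genes, all tested, 1 was above 0 with a median of -0.08 (0 and -0.08 without library 5), and Tfrc, the transferrin receptor, averaged 64.5 ± 16.9 CPM in PTK7KO libraries and 67.5 ± 11.8 CPM in control libraries.

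Of the 13 tested membrane genes 8 were above 0 with a median of 0.02 (6 and -0.00313 without library 5). Of the 12 tested cytosol and maturation genes 5 were above 0 with a median of -0.03 (6 and -0.09 without library 5). Epb41, a protein of the membrane skeleton, averaged 110.4 ± 8.14 CPM in PTK7KO libraries and 108.5 ± 10.9 CPM in control libraries. Prdx2, a peroxidase abundant in red cells, averaged 500.4 ± 31.9 CPM in PTK7KO libraries and 503.6 ± 38.6 CPM in control libraries. Many of these genes are used by other cells too, and neither Epb41 nor Prdx2 was highest in PTK7KO 5. The other 9 genes with the highest levels in their lists (Zfpm1, Lmo2, Tmem14c, Urod, Aco1, Ireb2, Slc2a1, Gypc and Bnip3l) had log2 fold changes from -0.16 (Slc2a1) to 0.17 (Zfpm1).

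The 17 list genes that failed the filter, among them Car1, a carbonic anhydrase of red cells, had 38, 35, 30 and 61 counts in sum in PTK7KO libraries 1, 2, 4 and 5, against 29, 26, 35 and 25 in control libraries 1, 3, 4 and 6. PTK7KO 5 was highest and control 6 lowest in this sum. Of the globins outside haemoglobin, 3 were tested. Cygb, cytoglobin, ran from 75.3 to 98.1 CPM in PTK7KO libraries and from 47.8 to 101.3 CPM in control libraries. Mb had 0.592 ± 0.159 CPM in PTK7KO libraries and 1.12 ± 0.206 CPM in control libraries, and Ngb, neuroglobin, had 0.67 ± 0.0654 CPM in PTK7KO libraries and 0.51 ± 0.326 CPM in control libraries.

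Markers of other cells that travel with blood or line vessels were summed beside the globins. The granulocyte list (7 of 10 tested, Elane at 0 in every library) had 9.69 to 20.9 CPM in PTK7KO libraries and 5.67 to 9.99 CPM in control libraries. All 7 tested granulocyte genes had a log2 fold change above 0, as had 51.4% of all genes, with a median of 0.68 (7 and 0.85 without library 5). At an unadjusted p under 0.05 in edgeR 2 of the 7 were higher, against 3.5% of all genes. For 1 the groups did not overlap, with PTK7KO higher, against 2.65%. None was called after adjustment. The library with most globin, PTK7KO 5, was the lowest PTK7KO library for this list at 9.69 CPM. The macrophage list (12 of 12 tested, 12 above 0 with a median log2 fold change of 0.20, and 10 above 0 with 0.11 without library 5) had 274.9 to 381.7 CPM in PTK7KO libraries and 215.0 to 327.2 CPM in control libraries, highest in PTK7KO 5 and control 6. The platelet list (4 of 10 tested) had 33.9 to 40.0 CPM in PTK7KO libraries and 30.4 to 37.4 CPM in control libraries, and the endothelial list 557.9 to 763.0 CPM in PTK7KO libraries and 609.8 to 689.7 CPM in control libraries.

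The liver list (1 of 10 tested, Serpina1a at 0) had 1.83 to 2.76 CPM in PTK7KO libraries and 1.46 to 2.83 CPM in control libraries, near 0 for genes that fetal hepatocytes express strongly. The part of these cells in the globin levels was not tested.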

How the data were processed

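The authors deposited raw counts per gene, 1 column per library, with exon coordinates and summed exon length. Per the submitters' processing notes, STAR and featureCounts were used on GRCm38. The sources used here do not give versions, strand setting, treatment of multi-mapping reads or the annotation. Symbols were matched by Ensembl identifier, leaving 512 of 46517 genes without one, and 19945 genes were at 0 in every library.

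The genes described and the gene lists were chosen with earlier results of these data known. Counts were fitted with edgeR 4.0.16 in R 4.3.3: TMM factors, filterByExpr (16469 genes kept), quasi-likelihood F test on group over 8 libraries, Benjamini-Hochberg adjustment at 0.05. The SE is approximate, the size of the log2 fold change over the root of its F. The biological coefficient of variation was 15.2%. No library was a duplicate of another, since chi-square per degree of freedom was 13.7 to 81.7 over the 28 pairs.

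Named beside the 9 genes are Ptk7, the 3 highest tested genes of each red cell list and every list gene called, and the 5 genes most like the adult globin sum or Alas2 over 8 libraries (mean CPM of at least 1, prior count of 2 on the log2 scale). Steap3, Xpo7, Mb, the genes near the clusters and list genes below the filter were named after their values were seen. Some genes that the rule takes are not reported here. Alternatives were DESeq2 1.42.0, its size factors, other filters, summed copies, a library size without the 9 genes, a replicate block and leaving out each library. DESeq2 without PTK7KO 5 was added after seeing the data. The code was tested on simulated counts. Shares, motifs and figures used Python 3.11.15, pandas 2.3.3, scipy 1.17.1 and matplotlib 3.10.9.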

Additional observations from a re-analysis of the deposited data

Results flagged for a closer look

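In 24 groups of 4 libraries, each for 1 measure, 10 had a library far from the other 3 (by Dixon's criterion on the gap over the range). The rate of about 1 in 20 groups that goes with this criterion holds for normally distributed values, which was not tested. The measures are not independent of each other, since the adult globin sum stands beside its own parts, and nothing is read from this count.

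The library labelled PTK7KO 5 was the high one in 7 of them. It had 1289.2 CPM of Hba-a1, where the other PTK7KO libraries had at most 492.1 CPM. It had 2108.7 CPM of Hbb-bs, 317.6 CPM of Hbb-bt, 64.1 CPM of Alas2 and 2.86 CPM of Slc4a1, and 3894.4 CPM of the adult globins together. It also had 194.2 CPM of Ptk7, against 7.32 to 12.5 CPM in the other PTK7KO libraries.

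Control 6 was far above the other control libraries for Hba-a2 (22.0 CPM) and Alas2 (28.1 CPM). PTK7KO 4 had an Hba-a2 share of 23.9% of alpha globin counts, where the other PTK7KO libraries had 11.4% to 12.2%.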

How the results depend on the processing

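Over the 15 alternatives fitted, the log2 fold change of Hba-a2 ran from 2.48 to 3.24. Its share of alpha globin counts differed by 9.27 to 14.3 percentage points. Leaving libraries out could not turn its direction, since every PTK7KO library was above every control library. The calls rest on the tool and filter. Over all genes edgeR called 0, against 1 with no filter on low counts, 184 in DESeq2, 177 in DESeq2 without PTK7KO 5, and 0 to 2 when each library was left out in turn (1 without PTK7KO 5, 2 without control 1). Of the 9 genes 0 were called, against 1, Hba-a2, with no filter, in DESeq2 and in DESeq2 without PTK7KO 5, and 0 to 0 when each library was left out. Of the other red cell genes 0 were called, against 2 in DESeq2. Hba-a1 changed sign without PTK7KO 5, at a log2 fold change of -0.33 in edgeR and -0.33 in DESeq2, and ran from -0.33 to 0.65 when each library was left out. Among the other single gene values, 84 kept their direction and their side of the threshold. The causes were not tested.

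Library numbers 1 and 4 occur in both groups. Their deviations from the group means correlated at -0.092 and 0.023, so the numbers were not taken as a pairing. With a replicate block on these 4 libraries 7 genes were called, 1 of them among the 9 genes (Hba-a2), and the log2 fold change of Slc4a1 changed sign, at -0.39.

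The difference in the Hbb-bt share, -0.313 percentage points, changed sign with pooled counts (0.337) and without PTK7KO 1 (0.166), control 1 (0.458) or control 4 (0.151), and ran from -0.989 to 0.458. The embryonic alpha-like share difference, -0.0013 points, changed sign with pooled counts (0.000328) and without control 1 (0.000168). Depth limits the embryonic globins and Slc4a1, whose counts per library were at most 3 and 70. The unknown treatment of reads shared by near-identical copies limits every split between copies. It also limits the sums of a pair and the alpha to beta ratios, and no alternative could test it.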

Other observations

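Of 13280 candidate genes with a mean of at least 1 CPM, Trim68 (r = 0.936), Rpl3-ps1 (0.934) and Vstm2b (0.928) were among the 5 whose log2 CPM followed the adult globin sum most closely over the 8 libraries. Isg20 (0.949), Rpl3-ps1 (0.946), Frmd5 (0.918) and Abca9 (0.916) were among the 5 closest to Alas2. These are Pearson correlations over 8 libraries, picked as the highest of many, and are given as descriptions. The blood content of the libraries was not measured apart from the red cell genes. Isg20, an exonuclease induced by interferon, had 2.53, 2.21, 1.95 and 6.91 CPM in PTK7KO libraries 1, 2, 4 and 5, against 2.17, 1.83, 2.26 and 2.76 CPM in control libraries 1, 3, 4 and 6. As with the globins, PTK7KO 5 and control 6 were the highest libraries of their groups, but for Isg20 only PTK7KO 5 stood out. The log2 fold change of Isg20 was 0.588 (SE 0.381), and -0.0144 (SE 0.213) without library 5.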
